A study of Homo sapiens with 12 samples.

Results

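The 10 Jumonji histone demethylase genes KDM2A, KDM2B, KDM3A, KDM3B, KDM4A, KDM4B, KDM4C, KDM5A, KDM5B and KDM6B were followed across hairpin and oxygen level in MDA-MB-231 cells. They were chosen by symbol, with earlier results of these data known. All 10 were found among the 24641 gene symbols of the count table, and all 10 were among the 15648 genes with enough reads to be tested. MDA-MB-231 is an established human line from a triple-negative breast cancer and has mesenchymal traits. Messenger RNA was sequenced from 4 groups of 3 libraries: cells with a control short hairpin RNA (shControl, genotype given as WT) and cells with a hairpin against RIPOR3 (shRIPOR3, given as RIPOR3 knockdown), each in normoxia or in hypoxia at 1% O2 for 24 hours. The study asks what RIPOR3 does in breast tumour growth and spread, and its title links RIPOR3 mRNA to hypoxia and to m6A RNA methylation. All shRIPOR3 columns carry the same hairpin tag and the labels describe no rescue, so loss of RIPOR3 and other effects of that hairpin or of making that line cannot be told apart. Whether the replicates are separate cultures is not in the labels, and each p-value therefore speaks only of spread among these libraries, which may be technical.

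Jumonji demethylases remove methyl groups from histone lysines with iron, alpha-ketoglutarate and molecular oxygen, so the enzymes themselves need the gas that hypoxia withholds. KDM3A and KDM3B act on mono- and dimethylated H3K9, the KDM4 enzymes on trimethylated H3K9 and H3K36, KDM2A and KDM2B mainly on H3K36, KDM5A and KDM5B on H3K4, and KDM6B on H3K27. KDM3A and KDM4B are known targets of the hypoxia-inducible factors (HIF), which bind DNA at a core of A or G followed by CGTG.

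The bases just before the annotated start of 4 members are shown because these genes span the range of the responses reported here: KDM3A and KDM4B rose most within their subfamilies in hypoxia, KDM3B is the weaker paralogue of KDM3A, and KDM5A changed least with oxygen and most with the hairpin. Each is 250 bases long, reads 5′ to 3′ in the direction of the gene and comes from RefSeq on GRCh38.p14, from chr2:86441121-86441370 (plus strand) for KDM3A, chr19:4968863-4969112 (plus) for KDM4B, chr5:138352435-138352684 (plus) for KDM3B and chr12:389321-389570 (minus) for KDM5A. Capitals mark ACGTG or GCGTG on either strand.
KDM3A: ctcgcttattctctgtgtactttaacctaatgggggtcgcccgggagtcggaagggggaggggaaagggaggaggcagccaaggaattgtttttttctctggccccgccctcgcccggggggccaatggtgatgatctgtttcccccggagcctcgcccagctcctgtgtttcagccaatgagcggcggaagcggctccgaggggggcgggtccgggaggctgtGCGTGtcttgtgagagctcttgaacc
KDM4B: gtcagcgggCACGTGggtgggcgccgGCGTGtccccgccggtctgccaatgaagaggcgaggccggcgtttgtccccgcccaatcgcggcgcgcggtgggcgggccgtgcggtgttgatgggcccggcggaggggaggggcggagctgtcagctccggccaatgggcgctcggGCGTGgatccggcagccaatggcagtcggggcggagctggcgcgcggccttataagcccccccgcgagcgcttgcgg
KDM3B: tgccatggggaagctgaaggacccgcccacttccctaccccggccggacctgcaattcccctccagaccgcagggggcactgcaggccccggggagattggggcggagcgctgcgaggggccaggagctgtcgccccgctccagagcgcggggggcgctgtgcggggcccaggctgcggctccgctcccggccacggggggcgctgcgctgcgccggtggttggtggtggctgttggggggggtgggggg
KDM5A: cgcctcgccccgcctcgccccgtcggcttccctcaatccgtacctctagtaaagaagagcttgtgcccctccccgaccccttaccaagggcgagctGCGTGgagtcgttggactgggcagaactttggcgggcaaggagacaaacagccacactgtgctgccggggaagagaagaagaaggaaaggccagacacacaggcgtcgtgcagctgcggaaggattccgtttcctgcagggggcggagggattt
Counted from the start site, the KDM3A core begins at -26. KDM4B holds GCGTG at -224 and -77 and a CACGTG at -241, which reads ACGTG on both strands. The KDM3B stretch holds neither core, and that of KDM5A holds 1 GCGTG, at -154. Over windows from 250 bases before to 50 after each start, 13 of the 16 windows of the 10 genes held ACGTG or GCGTG on either strand, against 48.4% of all 35116 RefSeq windows. GCGTG was in 12 of the 16 (36.5% of all windows), ACGTG in 3 (21.4%), and 2 or more matches in 4 (23.1%). Both cores hold CG, and G and C made up 53.0% to 84.0% of the members' windows. The background was not matched for this, so these shares cannot tell an excess of the cores from base content. The 16 windows are not independent: both KDM3A windows overlap and hold the same core. Of the members not printed, KDM4C (log2 fold change with hypoxia in shControl 0.59) held 5 matches, KDM4A (0.29) 1 and KDM5B (0.80) 1. By start site, KDM2A (0.95) held 3 and 0, KDM2B (1.19) 1, 1, 1 and 3, and KDM6B (1.34) 1 and 0. The printed stretches were picked by response size and do not show whether matches go with rises over the 10. A match of 5 letters is a description, not a binding site, and its part in the responses was not tested.

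Depth moved with oxygen: the normoxia libraries held 14750734 to 30032858 counts each, the hypoxia libraries 31781324 to 52526813. RIPOR3 had 7, 3 and 7 counts in normoxia shControl, 0, 0 and 1 in normoxia shRIPOR3, 33, 18 and 30 in hypoxia shControl and 9, 3 and 11 in hypoxia shRIPOR3. Mesenchymal markers were abundant in every library (VIM at least 401 CPM, counts scaled to library size, and CD44 at least 438), ESR1 and PGR stayed under 1 CPM, and of the blood markers PTPRC, CD3E and CD68 none passed 0.165 CPM. KRT8 (median 957 CPM) and ERBB2 (40.0 CPM) of the luminal list were present, as were the endothelial-type genes PECAM1, CDH5 and KDR at medians of 2.35 to 7.99 CPM. CDH5 and KDR rose with hypoxia under both hairpins, and CDH5 and PECAM1 were lower in shRIPOR3 at both oxygen levels. CDH5 went from 2.19 to 8.28 CPM with hypoxia in shControl and stood at 1.32 and 2.41 CPM in normoxia and hypoxia shRIPOR3. PECAM1 stood at 5.36 and 4.84 CPM in normoxia and hypoxia shControl and at 1.23 and 1.31 CPM in shRIPOR3, and KDR at 6.75, 6.70, 8.97 and 9.27 CPM in normoxia shControl, normoxia shRIPOR3, hypoxia shControl and hypoxia shRIPOR3. Their part in the members' results was not tested.

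Levels per kilobase of the longest coding transcript spanned more than an order of magnitude in normoxia shControl. KDM3A led at 15.6 ± 0.115 CPM per kb (mean ± SD, n = 3), followed by KDM2A at 12.5 ± 0.260, KDM3B at 9.73 ± 0.528 and KDM2B at 6.13 ± 0.415. KDM4A (4.38 ± 0.238) and KDM5A (4.15 ± 0.0517) differed by less than their summed SDs. Below them stood KDM4B at 3.37 ± 0.0786, KDM5B at 2.79 ± 0.0330, KDM4C at 2.06 ± 0.256 and KDM6B at 0.839 ± 0.0919 CPM per kb. In hypoxia shControl the order of the leading 4 was the same, with KDM3A at 42.4 ± 0.599 and KDM2A at 24.1 ± 0.233 CPM per kb, while KDM4B (8.36 ± 0.423) stood above KDM4A (5.40 ± 0.165), and KDM5B (4.84 ± 0.164) and KDM5A (4.66 ± 0.183) differed by less than their summed SDs. The order rests on the gene model: over all merged exons, KDM2A (8.39) and KDM3B (8.33) stood above KDM3A (5.73 CPM per kb) in normoxia shControl.

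**Figure D1:**
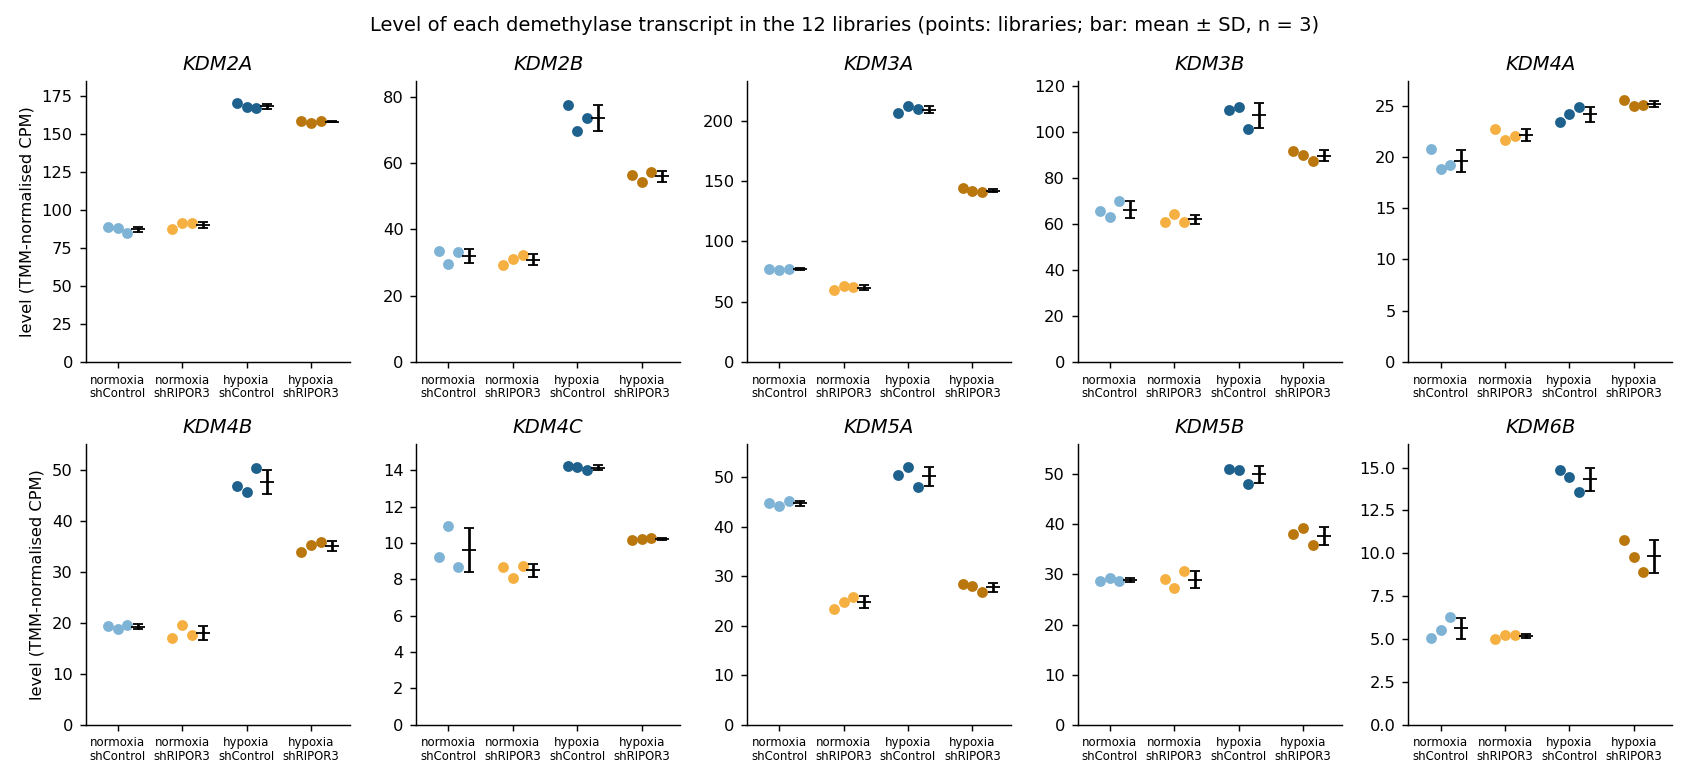
Level of each of the 10 transcripts in TMM-normalised CPM (y axis, from 0) in the 4 groups (x axis), with 1 point per library and the mean ± SD of 3 libraries beside it. In all 10 panels the hypoxia libraries lie above the normoxia libraries of the same hairpin, and in the KDM5A panel both shRIPOR3 groups, at 24.7 and 27.7 CPM, lie below both shControl groups.

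Hypoxia raised all 10 transcripts in shControl cells, by 1.12-fold to 2.72-fold, and 4 of them by at least 2-fold. Their median log2 fold change was 0.87, against 0.02 over all 15648 genes. In edgeR's quasi-likelihood test, adjusted over all genes, 10 of 10 passed at 0.05 in the upward direction, where 32.4% of all genes did, and 4 of 10 rose at least 2-fold, where 7.96% of all genes did. The 3 hypoxia libraries lay above the 3 normoxia libraries for all 10 members and for 34.1% of all genes. Because the 10 were chosen with earlier results known, member counts here and below are descriptions and not a test of the family. These are levels over whole cultures, in which more cells with a transcript and more of it per cell cannot be told apart.

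KDM3A, an H3K9 demethylase, changed most. Its normoxia shControl libraries stood at 77.3, 76.2 and 77.2 CPM and its hypoxia shControl libraries at 206, 212 and 209 CPM. The groups are far apart, at a fitted log2 difference of 1.44 ± 0.0359 (all such errors are SEs of the fit; adjusted p = 3.11e-20), and 3.27% of all genes had a higher value. KDM3B, its paralogue, went from 65.6, 63.1 and 70.2 to 110, 111 and 101 CPM, without overlap (0.69 ± 0.0450, adjusted p = 2.09e-12).

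The KDM4 genes, whose enzymes remove trimethyl marks, split. KDM4B rose from 19.5, 18.7 and 19.5 to 46.8, 45.8 and 50.4 CPM (1.30 ± 0.0542, adjusted p = 5.08e-16). KDM4C stood at 9.22, 10.9 and 8.66 CPM in normoxia and at 14.2, 14.2 and 14.0 CPM in hypoxia (0.59 ± 0.0731). Its normoxia libraries were the more scattered, and none reached the hypoxia level. KDM4A rose least of the subfamily, from 20.8, 18.8 and 19.2 to 23.4, 24.1 and 24.9 CPM (0.29 ± 0.0526, adjusted p = 3.05e-05).

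Both H3K36 demethylase genes of the KDM2 subfamily rose. KDM2A went from 88.5, 87.7 and 85.0 CPM to 170, 168 and 167 CPM (0.95 ± 0.0354). KDM2B, which also recruits a Polycomb repressive complex to CpG islands, went from 33.3, 29.5 and 33.2 to 77.6, 69.7 and 73.6 CPM (1.19 ± 0.0514). Neither gene's groups overlap. Exons of KDM2B overlap those of RNF34 on the other strand over 439 bases. The strand setting of the counting is not given, so some KDM2B counts cannot be assigned. RNF34 stood at 120 to 168 CPM. Its means were 132 and 121 CPM in normoxia and 162 and 138 CPM in hypoxia, for shControl and shRIPOR3 in turn. The part of RNF34 reads in the KDM2B results here and below was not tested.

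Of the H3K4 demethylase genes, KDM5B rose from 28.8, 29.2 and 28.6 to 51.1, 50.9 and 48.1 CPM (0.80 ± 0.0503). KDM5A moved from 44.7, 44.1 and 45.2 to 50.4, 52.0 and 48.0 CPM, the smallest rise of the 10 (0.16 ± 0.0444, adjusted p = 0.00255). KDM6B, which demethylates H3K27, had the lowest level per kb of coding transcript in every group. It rose from 5.06, 5.54 and 6.29 to 14.9, 14.5 and 13.6 CPM (1.34 ± 0.0909), a 2.53-fold change that stands beside KDM4B's 2.47-fold.

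Most members have long merged exons, and genes with long merged exons moved with oxygen. This length covers all annotated exons of a gene and is not transcript length. KDM3A has 13423 merged bases against 4928 in its longest coding transcript. By merged exon length, 9 of the 10 lie among the longest 25% of the genes tested and 7 among the longest 10%. Of the 1516 genes in that longest 10%, 55.4% rose in hypoxia in shControl and 17.5% fell, with a median log2 fold change of 0.28. The part of merged exon length in the members' rise was not tested. Scaling matters as well: scaled to raw totals alone, without TMM factors, the median of all genes moved by 0.11 in shControl and 0.12 in shRIPOR3. The share of called genes that were higher went from 50% to 61.6% and from 45.3% to 63.4%, and all 10 members stayed higher under each scaling.

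In shRIPOR3 cells hypoxia again raised all 10 transcripts, by 1.12-fold to 2.30-fold, with a median log2 fold change of 0.67 against -0.01 over all genes. All 10 passed the test upward, where 25.2% of all genes did, and the hypoxia libraries lay above the normoxia libraries for all 10, as for 28.5% of all genes. KDM3A was the only member to rise at least 2-fold, which 3.20% of all genes did. It went from 59.3, 62.9 and 62.3 to 144, 141 and 141 CPM (1.20 ± 0.0367, adjusted p = 8.59e-18). KDM4B went from 17.0, 19.6 and 17.6 to 34.0, 35.3 and 35.8 CPM (0.95 ± 0.0555), and KDM6B from 5.02, 5.21 and 5.25 to 10.8, 9.76 and 8.89 CPM (0.92 ± 0.0954). The groups are separate for both, although the KDM6B hypoxia libraries are spread.

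KDM2B rose from 29.1, 31.0 and 32.4 to 56.4, 54.3 and 57.5 CPM (0.85 ± 0.0520). KDM2A rose from 87.4, 91.4 and 91.1 to 158, 157 and 158 CPM (0.81 ± 0.0351). For KDM3B the libraries stood at 61.0, 64.3 and 60.8 and then at 91.9, 90.3 and 87.3 CPM (0.53 ± 0.0453). These 3 rises lie between 1.45-fold and 1.81-fold. The rest were smaller, with KDM5B at 0.37 ± 0.0507, KDM4C at 0.26 ± 0.0758, KDM4A at 0.19 ± 0.0505 and KDM5A at 0.16 ± 0.0499. The KDM5A call was lost without replicate 1 of normoxia shRIPOR3 (adjusted p = 0.0569) and after thinning all libraries to one total (0.0587).

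The interaction term asked whether the hypoxic rise differed between the hairpins. It was negative for 7 of 10 members past the threshold and positive for none, where 23.2% of all genes passed, 12.3% as negative and 10.9% as positive. The term subtracts the rise in shControl, which all 10 members had, so negative values are not independent of that rise. The all-gene shares take in the 5069 genes that fell in shControl and are not a like background. Of all genes, 1245 rose at least 2-fold in shControl and 501 in shRIPOR3. KDM5B had the largest difference, -0.42 ± 0.0718 (adjusted p = 0.000146): it rose 1.74-fold in shControl and 1.30-fold in shRIPOR3. KDM4B (-0.35 ± 0.0791, adjusted p = 0.00214), KDM2B (-0.34 ± 0.0739, adjusted p = 0.00183) and KDM3A (-0.24 ± 0.0512, adjusted p = 0.00154) also rose less in shRIPOR3. These 4 calls held under all 21 alternatives for this term, with adjusted p up to 0.0367. None of the alternatives tested the overlap of KDM2B with RNF34.

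The other 3 calls were less firm. KDM6B (-0.42 ± 0.137, adjusted p = 0.0292) kept its call in 13 of 21 alternatives, KDM4C (-0.32 ± 0.106, adjusted p = 0.029) in 9 and KDM2A (-0.14 ± 0.0498, adjusted p = 0.044) in 3. KDM6B lost it without replicate 1 of normoxia shControl (adjusted p = 0.121), 2 or 3 of normoxia shRIPOR3, 1 or 2 of hypoxia shControl or 3 of hypoxia shRIPOR3. KDM4C lost it without replicate 1 or 3 of normoxia shControl (0.125 for the latter), 1 or 3 of normoxia shRIPOR3, any of hypoxia shControl or 1 of hypoxia shRIPOR3. KDM2A kept it through the removal of only 2 single libraries, replicate 2 of normoxia shControl or 1 of normoxia shRIPOR3. The count of calls was 4 in DESeq2, and 4 without replicate 1 of normoxia shControl, replicate 3 of normoxia shRIPOR3, or replicate 1 or 2 of hypoxia shControl. KDM3B (-0.16, 95% interval -0.29 to -0.02, adjusted p = 0.0821, and 0.0391 without replicate 3 of normoxia shControl) and KDM4A (-0.10, -0.26 to 0.05) did not pass. For KDM5A the difference was -0.01 with an interval of -0.14 to 0.13. Among the longest 10% of genes, 25.4% were negative past the threshold, and the part of length in the members' count was not tested.

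**Figure D2:**
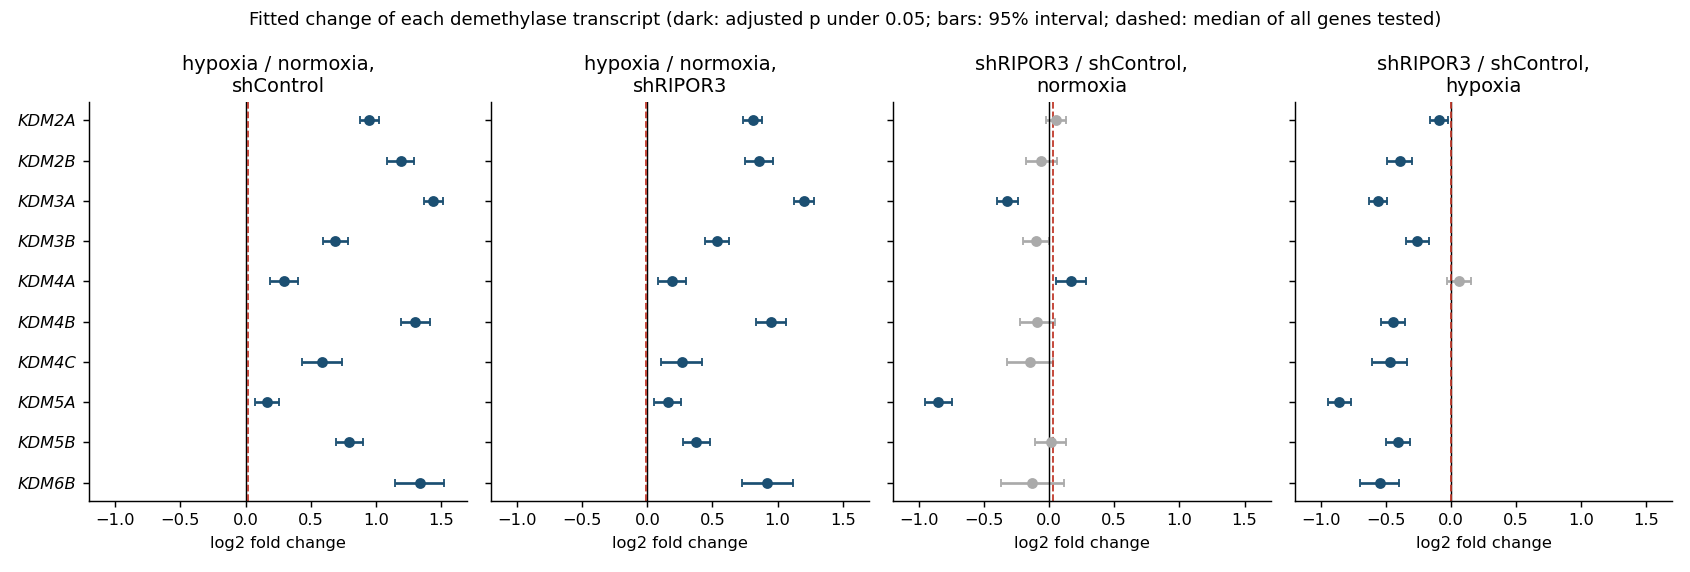
Fitted log2 fold change (x axis) of each member (y axis) in 4 comparisons, with 95% intervals, dark where the adjusted p is under 0.05, and a dashed line at the median of all genes tested. All 10 points lie right of 0 in both hypoxia panels, and KDM5A lies near -0.85 in both knockdown panels.

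In normoxia 2 of the 10 were called lower in shRIPOR3, 1 higher and 7 neither, where 45.7% of all genes were called. KDM5A was lower in shRIPOR3, at 23.4, 24.8 and 25.8 CPM against 44.7, 44.1 and 45.2 in shControl. The groups are widely separate, with a log2 fold change of -0.85 ± 0.0510 (adjusted p = 1.99e-12), or 1.80-fold lower. KDM3A was lower by a smaller amount, 59.3, 62.9 and 62.3 against 77.3, 76.2 and 77.2 CPM (-0.32 ± 0.0392, adjusted p = 3.65e-07). These 2 were the members called lower, where 20.6% of all genes were.

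KDM4A was the 1 member called higher, where 25.1% of all genes were (45.7% in either direction), at 22.7, 21.6 and 22.04 against 20.8, 18.8 and 19.2 CPM (0.17 ± 0.0568, adjusted p = 0.0191). The KDM4A call did not survive DESeq2 (adjusted p = 0.0623), a fit of the 2 groups alone (0.0886), thinning (0.0878) or the removal of replicate 2 (0.0575) or 3 (0.0863) of normoxia shControl, replicate 1 (0.0526) or 3 (0.0501) of normoxia shRIPOR3, or replicate 2 of hypoxia shControl (0.054). The 7 others did not pass and their groups overlapped, for which no share over all genes is given. KDM3B had -0.10 ± 0.0484 (adjusted p = 0.0921) and passed in a fit of the 2 groups alone (0.025), or when normoxia shControl lost replicate 2 (0.041) or hypoxia shControl lost replicate 2 (0.0315) or 3 (0.0201). For the other 6, 95% intervals ran from -0.37 at the lowest, for KDM6B, to 0.13 at the highest, for KDM2A and KDM5B.

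In hypoxia 9 of the 10 were lower in shRIPOR3 and none was higher, where 31.2% of all genes were lower and 30.7% higher (61.9% in all). Their median log2 fold change was -0.43, against -0.00285 over all genes. The shRIPOR3 libraries lay below the shControl libraries for the same 9, as for 33.4% of all genes. This comparison shares its shControl libraries with the first one, so the members' values in the 2 are not independent. Among the longest 10% of genes 44.4% were lower and 22.3% higher, and the part of length was not tested here either.

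KDM5A again differed most, at 28.3, 28.1 and 26.8 CPM in shRIPOR3 against 50.4, 52.0 and 48.0 CPM in shControl (-0.86 ± 0.0429, adjusted p = 2.41e-14), or 1.81-fold lower. Exons of KDM5A overlap those of CCDC77 on the other strand over 182 bases; CCDC77 had means of 73.7 and 70.6 CPM in normoxia and 58.3 and 54.3 CPM in hypoxia, for shControl and shRIPOR3 in turn. KDM3A stood at 144, 141 and 141 CPM against 206, 212 and 209 (-0.56 ± 0.0331, adjusted p = 5.34e-13). The hypoxic KDM3A level in shRIPOR3 thus lay between the normoxia and the hypoxia levels of shControl, with no overlap with either.

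KDM6B (-0.54 ± 0.0723), KDM4C (-0.47 ± 0.0634), KDM4B (-0.44 ± 0.0456), KDM5B (-0.41 ± 0.0446) and KDM2B (-0.39 ± 0.0449) were lower by 1.31-fold to 1.46-fold. The KDM4C libraries stood at 10.1, 10.2 and 10.3 CPM against 14.2, 14.2 and 14.0. For KDM3B the difference was -0.26 ± 0.0418. KDM2A was lower by a small amount (-0.09 ± 0.0329, adjusted p = 0.0206), a call kept in 13 of 22 alternatives, with an adjusted p of 0.255 when low counts were not filtered. Among the losses were those without replicate 1 (0.0692) or 2 (0.0613) of hypoxia shControl and without replicate 1 (0.0575), 2 (0.0573) or 3 (0.0542) of hypoxia shRIPOR3. KDM4A did not pass (0.06, 95% interval -0.03 to 0.16).

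Ratios of paralogue counts within a library do not depend on depth or scaling. KDM3A per KDM3B was 1.18, 1.21 and 1.10 in normoxia shControl, 1.88, 1.91 and 2.07 in hypoxia shControl, 0.972, 0.978 and 1.03 in normoxia shRIPOR3 and 1.57, 1.57 and 1.61 in hypoxia shRIPOR3. No pair of the 4 groups overlaps, and the ratio is higher in hypoxia under both hairpins. KDM4B per KDM4A went from 0.983 ± 0.0431 to 1.97 ± 0.0674 with hypoxia in shControl and from 0.817 ± 0.0803 to 1.39 ± 0.0524 in shRIPOR3 (mean ± SD, n = 3).

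KDM5A per KDM5B stood at 1.55 ± 0.0371 in normoxia shControl and 0.853 ± 0.0548 in normoxia shRIPOR3, and in hypoxia at 1.00 ± 0.0171 and 0.735 ± 0.0182. Over the 5 ratios and 4 comparisons computed, 17 of 20 had groups that did not overlap, for which the two-sided exact permutation p is 0.1, the smallest that 3 against 3 allows (0.118 after Benjamini-Hochberg adjustment over the 20). The 20 reuse the same 12 libraries, and KDM4A is the denominator for both KDM4B and KDM4C. No share over other gene pairs stands beside this count, so it does not set these pairs apart. KDM2A per KDM2B overlapped between hairpins in normoxia (2.73 ± 0.216 and 2.92 ± 0.0975).

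**Figure D3:**
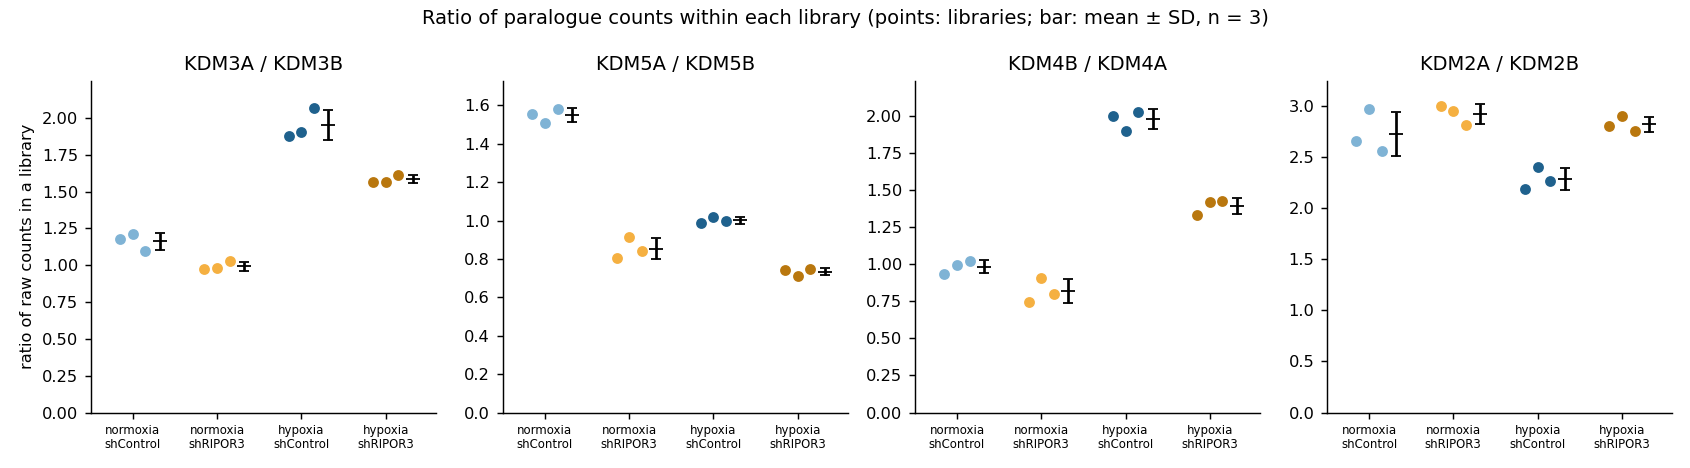
Ratio of the raw counts of 2 paralogues in each library (y axis, from 0) in the 4 groups (x axis), with the mean ± SD of 3 libraries. KDM3A per KDM3B and KDM4B per KDM4A are higher in hypoxia under both hairpins, and KDM5A per KDM5B is highest in normoxia shControl, at 1.55.

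The summed level of the 10 was 390 ± 5.17 CPM in normoxia shControl, 352 ± 7.996 in normoxia shRIPOR3, 759 ± 7.61 in hypoxia shControl and 592 ± 5.29 in hypoxia shRIPOR3. KDM3A made up 19.7% ± 0.120 of the members' counts in normoxia shControl and 27.6% ± 0.519 in hypoxia shControl. KDM5A went the other way, from 11.5% ± 0.0632 to 6.61% ± 0.207, and made up 4.68% ± 0.107 in hypoxia shRIPOR3.

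Over the 12 libraries the genes most like KDM3A, among 9789 with a mean of at least 5 CPM, were the mitophagy receptor gene BNIP3 (Pearson r of log2 CPM 0.9988), the chromatin remodeller gene BPTF (0.9979), the corepressor gene SIN3A (0.9971), the receptor gene IGF1R (0.9967) and ZNF292 (0.9963). On the log2 scale BPTF moved by 1.19 with hypoxia in shControl and by 0.94 in shRIPOR3. For KDM5B, the member with the largest interaction after KDM3A was set aside, they were SNX25 (0.9929), SPRED1 (0.9922), ROCK2 (0.9914), FNBP1 (0.9899) and ZFC3H1 (0.9899). The libraries share 4 conditions, so these values mostly describe 4 group means. Among the members, KDM2B and KDM4B were most alike (0.9923), and KDM5A and KDM4A least (-0.2494).

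Other Jumonji genes did not all move with the 10, which are a part of the family chosen by symbol. Of 18 other genes with a Jumonji domain 17 were tested, and in hypoxia in shControl 9 rose, 3 fell and 5 did not pass (median 0.29). Over all 15648 genes, 5074 rose and 5069 fell. The repressive-complex subunit gene JARID2 rose from 29.2 to 63.6 CPM (1.13 ± 0.0458) and the H3K4 demethylase gene KDM5C from 117 to 193 CPM (0.72 ± 0.0402), while the ribosomal oxygenase gene RIOX2 fell from 93.7 to 47.4 CPM (-0.98 ± 0.0421). In hypoxia 7 of the 17 were higher in shRIPOR3 and 6 lower (median 0.11), where 30.7% of all genes were higher and 31.2% lower. RIOX2 stood at 0.66 ± 0.0406 and JMJD1C at -0.43 ± 0.0383. KDM5C was lower in shRIPOR3 in normoxia (-0.37 ± 0.0426) and in hypoxia (-0.40 ± 0.0384), as KDM5A was. The demethylase gene KDM7A was higher in shRIPOR3 in normoxia, at 10.3 against 5.28 CPM (0.95 ± 0.0893).

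In shRIPOR3 hypoxia raised 9 of the 17 and lowered 4, where 3946 of all 15648 genes rose and 4758 fell. In normoxia 5 were higher and 2 lower in shRIPOR3, where 25.1% of all genes were higher and 20.6% lower. Their interaction was positive past the threshold for 4, among them RIOX2 (0.47 ± 0.0578), and negative for 3, among them JARID2 (-0.42 ± 0.0651). The shares over all genes were 10.9% positive and 12.3% negative.

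The TET genes, whose enzymes oxidise methylcytosine by the chemistry of the Jumonji demethylases, all rose in shControl. TET3 went from 9.29 to 27.2 CPM (1.56 ± 0.0739). TET1 was lower in shRIPOR3 in hypoxia (-0.84 ± 0.154). The LSD demethylases use flavin and not iron, and of the 4 genes of that list 1 rose and 2 fell in shControl. KDM1B stood at -0.55 ± 0.0522 and the corepressor gene RCOR1 at 0.37 ± 0.0421. The background for rises and falls in shControl was 5074 and 5069 of 15648 genes.

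Genes on the lists of the opposing methyltransferases, which also hold subunit genes such as RBBP5 and EED, were mixed. Their hypoxia counts in shControl stand beside 5074 genes that rose and 5069 that fell, of all 15648 tested. For H3K4, 6 of 12 rose and 5 fell with hypoxia in shControl. The 6 were KMT2A (1.23 ± 0.0452), KMT2C (1.16 ± 0.0528), KMT2B, KMT2D, SETD1A and SETD1B. The 5 were the core subunit gene RBBP5 (-0.64 ± 0.0451), WDR5, DPY30, SMYD3 and SETD7. In shRIPOR3 against shControl 5 of these 12 were lower and none higher in normoxia, led by RBBP5 (-0.73 ± 0.0479) and SETD1A (-0.63 ± 0.0421). In hypoxia 5 were lower and 3 higher. Over all genes 20.6% were lower and 25.1% higher in normoxia, and 31.2% lower and 30.7% higher in hypoxia. For H3K9, 2 of 7 rose and 4 fell with hypoxia in shControl (median -0.26), with SUV39H1 at -0.45 ± 0.0510 and EHMT2 at -0.38 ± 0.0432. For H3K27, 1 of 6 rose and 5 fell (median -0.18), among them the Polycomb subunit gene EED at -0.49 ± 0.0393, and EZH1 rose by 0.27 ± 0.0513. For H3K36, 4 of 6 rose and 1 fell, with ASH1L at 0.64 ± 0.0400 and SETD2 at 0.32 ± 0.0370.

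Of the 7 genes for partners of KDM2B in its Polycomb complex, 2 rose and 3 fell in shControl. Over all 15648 genes, 5074 rose and 5069 fell. BCOR rose from 30.9 to 85.6 CPM (1.47 ± 0.0438), whereas PCGF1 fell from 25.03 to 15.3 CPM (-0.71 ± 0.0621). BCORL1 was lower in shRIPOR3 in normoxia (-0.68 ± 0.0591) and in hypoxia (-0.59 ± 0.0475). Of the HIF pathway list 8 genes were tested, of which 5 rose and 2 fell with hypoxia in shControl. In hypoxia 1 was higher and 4 lower in shRIPOR3, where 30.7% of all genes were higher and 31.2% lower. EPAS1, which encodes HIF-2 alpha, went from 7.91 to 17.3 CPM with hypoxia in shControl and from 5.625 to 7.995 CPM in shRIPOR3. The oxygen-sensing hydroxylase gene EGLN1 went from 9.67 to 34.3 CPM in shControl and from 9.597 to 25.01 CPM in shRIPOR3. HIF1A mRNA stood at 180 and 64.9 CPM in normoxia and hypoxia shControl and at 103 and 61.7 CPM in shRIPOR3.

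**Figure D4:**
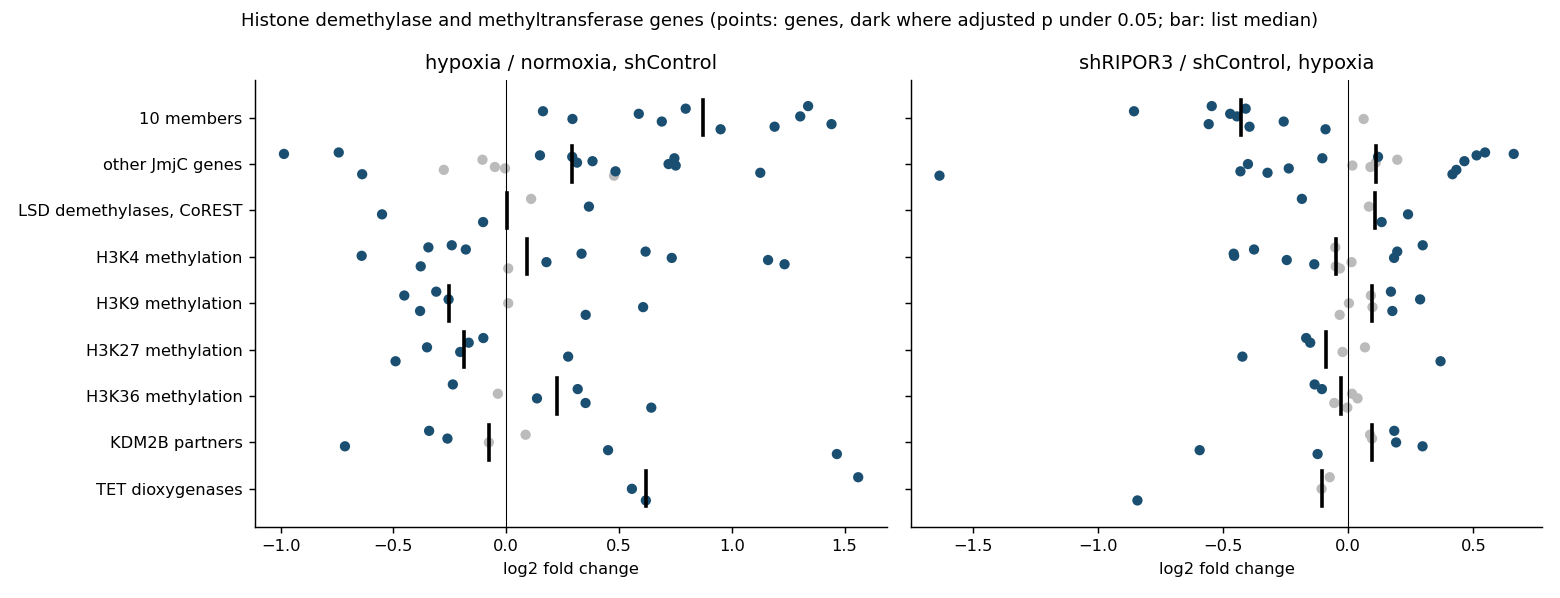
Log2 fold change (x axis) of the genes of each list (y axis) for hypoxia against normoxia in shControl and for shRIPOR3 against shControl in hypoxia, dark where the adjusted p is under 0.05, with a bar at the list median. The 10 members have medians of 0.87 and -0.43, and the other Jumonji genes have medians of 0.29 and 0.11.

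On GRCh38 in GENCODE 29 the 10 genes lie on 8 chromosomes and all are protein coding. KDM3A spans chromosome 2 from 86440647 to 86492716, KDM3B chromosome 5 from 138352596 to 138437028, KDM4B chromosome 19 from 4969113 to 5153595 and KDM5A chromosome 12 from 280129 to 389454. KDM2B shares chromosome 12 (121429097 to 121581015), and KDM4A (43650158 to 43705515) and KDM5B (202724495 to 202809470) share chromosome 1. KDM2A lies on chromosome 11 (67119269 to 67258087), KDM4C on chromosome 9 (6720863 to 7175648) and KDM6B on chromosome 17 (7839904 to 7854796). Counts cover whole genes and do not separate transcripts. The protein-coding gene AL451062.3, not analysed here, shares 2077 exon bases with KDM4A on the same strand, so how reads there were assigned is not known. The antisense gene KDM4A-AS1 overlaps KDM4A exons over 464 bases and held 15 to 65 counts, against 268 to 1372 for KDM4A.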

How the data were processed

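The authors deposited raw read counts per gene symbol for 12 RNA-seq libraries. GRCh38, fastp 0.23.4, STAR 2.5.3a and featureCounts (no version) are named in the submitters' processing notes. Annotation and strand setting were not given in the sources used here. The labels' protocols describe stranded mRNA libraries.

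One model with a coefficient per group covered all 12 libraries (edgeR 4.0.16 in R 4.3.3, filterByExpr, TMM factors). Its quasi-likelihood p-values carry a Benjamini-Hochberg adjustment over 15648 genes, with a threshold of 0.05. Levels are CPM of the TMM-scaled total. The 24 names that a spreadsheet had turned into dates were kept. Alternatives were DESeq2 1.42.0, other scaling, filters and thresholds, a replicate block, fewer groups, thinning to the smallest total and leaving out each library. The fit was tested on simulated data.

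The members and lists were chosen with earlier results of these data known. The rule for named genes took all 10 members, RIPOR3, up to 3 genes by smallest p per list and comparison, and the 5 genes most like KDM3A and like the member with the largest other interaction. HIF pathway and cell line marker levels are shown beside them. Listed symbols were matched to the table by name, and HIF3A and HBB were not analysed here. Promoters are RefSeq windows on GRCh38.p14, found for all 10 members. Intervals are 95% intervals of the fit. Python 3.11.15, pandas 2.3.3 and matplotlib 3.10.9 were used for sequences and figures.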

Additional observations from a re-analysis of the deposited data

Results flagged for a closer look

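The hypoxic change differed between the hairpins, by the interaction test in edgeR, for 7 of the 10 demethylase genes, and each was smaller in shRIPOR3. As the difference of log2 fold changes, shRIPOR3 minus shControl, it was -0.42 for KDM5B, -0.42 for KDM6B, -0.35 for KDM4B, -0.34 for KDM2B, -0.32 for KDM4C, -0.24 for KDM3A and -0.14 for KDM2A. The background for a negative call was 12.3% of all genes. It is not a like background, because it takes in genes that fell in shControl. All 10 members rose there, and the interaction subtracts that rise. Over 21 alternatives the call was kept in 3 for KDM2A (adjusted p up to 0.233), in 9 for KDM4C (up to 0.147) and in 13 for KDM6B (up to 0.121), and in all 21 for KDM2B, KDM3A, KDM4B and KDM5B.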

How the results depend on the processing

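All 10 members stayed called higher with hypoxia in shControl in each of 22 alternatives, and 9 or 10 of them in shRIPOR3. The count of members called ran from 2 to 4 for the knockdown in normoxia and from 8 to 9 in hypoxia. For the interaction it was 7, and 4 in DESeq2, 4 at a threshold of 0.01, 6 under each other scaling, 5 without a filter, 5 after thinning, 7 with a filter of 1 CPM and 4 to 7 when single libraries were left out; the cause was not tested. Values near 0 changed sign. The interaction of KDM5A was 0.017 with median-of-ratios factors, 0.0059 with upper-quartile factors, 0.0066 with library totals, 0.017 in DESeq2, 0.0086 without a filter and -0.033 to 0.058 when single libraries were left out. KDM5B in the normoxia knockdown was -0.00027 with library totals, -0.022 with only the 2 groups compared and -0.041 to 0.056 when single libraries were left out. KDM4A in the hypoxia knockdown was -0.022 after thinning, in a single random draw. With the replicate number as a block, the members called were 10, 10, 3, 9 and 6 in the order of the comparisons, and the KDM2A interaction lost its call (adjusted p = 0.0539); no other member's call changed. Libraries with the same number did not deviate together (median correlation -0.000513 over 18 pairs, 3 of 12 libraries closest to one of their own number), so the numbers were not used as pairs. Depth bounds KDM6B and KDM4C most, whose lowest counts were 76 and 131.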
